A study of Mus musculus with 16 samples.

Results

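The 34 genes described here encode proteins of meiotic prophase. They were chosen by gene name and are ordered by the step at which they act: entry into meiosis and sister chromatid cohesion, synapsis, recombination, crossover formation, and other germ cell functions. Of the 34 genes, 32 had a probe set assigned to them alone on the Affymetrix mouse array, and these 32 stand among 18193 genes tested. Rad51ap2 and Rnf212 had no such probe set and are not described further by level. Where a gene had several probe sets, the one with the highest mean over all arrays was used, and 27 of the 32 genes had only 1. The 6 further probe sets of the other 5 genes were not called in any comparison either (lowest limma adjusted p = 0.557). At an unadjusted limma p under 0.05, 2 of the 6 passed in 1 comparison each. They were a second Trip13 probe set, with a log2 difference of -0.36 in Runx1 KO against control, and the second Psmc3ip probe set, with -0.42 in DKO against Foxl2 KO. Of all genes, each by its 1 chosen probe set, 7.34% and 5.38% passed the same limit in these 2 comparisons.

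RNA was profiled from 16 newborn (P0) XX ovaries, 1 ovary per array and 4 ovaries for each of 4 genotypes. Control ovaries carried 1 floxed and 1 wild-type Runx1 allele, 2 wild-type Foxl2 alleles and no Cre (Runx1+/f Foxl2+/+ Sf1-cre+/+). Runx1 KO ovaries carried a null and a floxed Runx1 allele with the Sf1-cre transgene (Runx1-/f Foxl2+/+ Sf1-cre+/Tg). Loss of both Foxl2 alleles without Cre defined the Foxl2 KO (Runx1+/f Foxl2-/- Sf1-cre+/+), and the double knockout (DKO) combined both losses (Runx1-/f Foxl2-/- Sf1-Cre+/Tg). All 4 groups carried a floxed Runx1 allele. Sf1-cre acts in the somatic cells of the gonad, so germ cells of the Runx1 KO and DKO kept a floxed allele beside the null one, whereas the Foxl2 null alleles were present in every cell. Runx1 loss always came with the Cre transgene and the null allele, and these cannot be told apart. As a check of the labels, the Foxl2 probe set read 2774 to 4241 in the control ovaries and 484 to 890 in the 8 ovaries without Foxl2. The Runx1 probe set read 2142 to 2359 in control. In Runx1 KO it read 1701, 1221, 932 and 2127 in replicates 1 to 4, so replicate 4 lay just below the control range. In the ovaries labelled DKO it read 2111 to 2370 and did not follow the genotype. Runx1 KO and DKO carry the same Runx1 alleles and Cre transgene, and why their readings differed was not tested. Whether that probe set covers the deleted part of Runx1 was not determined. The loss of Runx1 in DKO was thus not shown by this probe set and rests on the labels.

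Meiotic prophase is the stage at which homologous chromosomes pair, are joined along their length by the synaptonemal complex, and exchange DNA at programmed double-strand breaks. In the mouse ovary, germ cells enter meiosis in fetal life after retinoic acid induces Stra8, and by birth most oocytes have completed recombination and are moving into the long diplotene arrest, surrounded by the pre-granulosa cells that express Foxl2 and Runx1. The array values come from whole ovaries, so fewer oocytes and less RNA per oocyte cannot be told apart.

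None of the 32 meiotic prophase genes passed the test in any genotype. Values were compared as log2(intensity + 16), and a gene was called at a Benjamini-Hochberg adjusted p under 0.05 over all 18193 genes in limma's moderated test. In these terms 0 of 32 members were called in Runx1 KO against control, where 0.121% of all genes were called, 0 in Foxl2 KO (1.52% of all genes) and 0 in DKO (2.13%). Likewise 0 were called in DKO against Foxl2 KO (0.0605%), 0 in DKO against Runx1 KO (0.989%) and 0 in the interaction, which asks whether the effect of Runx1 loss differed with and without Foxl2 (0.011%).

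At an unadjusted limma p under 0.05, 1 member passed in Foxl2 KO against control, the crossover gene Msh4, beside 11% of all genes. No member passed this looser limit in Runx1 KO (7.34% of all genes), in DKO (12.4%), in DKO against Foxl2 KO (5.38%), in DKO against Runx1 KO (9.43%) or in the interaction (5.33%). The study's own criterion, an analysis of variance at an unadjusted p under 0.05 with a change of at least 1.5-fold, called 0 members in each of these comparisons. It called 2.8% of all genes in Runx1 KO, 5.02% in Foxl2 KO, 5.97% in DKO, 2.21% in DKO against Foxl2 KO, 4.13% in DKO against Runx1 KO and 3.14% in the interaction. For every member the 4 values of a knockout overlapped those of the control, and the DKO values overlapped those of each single knockout. Groups lay fully apart for 3.97% of all genes in Runx1 KO, 6.72% in Foxl2 KO, 7.61% in DKO, 3.57% in DKO against Foxl2 KO and 5.93% in DKO against Runx1 KO.

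The log2 differences of the members from control ranged from -0.92 (Tex101) to 0.33 (Syce1) in Runx1 KO, from -0.68 (Msh4) to 0.42 (Rec8) in Foxl2 KO and from -0.41 (Tex14) to 0.36 (Stra8) in DKO. Their median was -0.10 in Runx1 KO beside 0.04 over all genes tested, -0.05 beside 0.05 in Foxl2 KO, and -0.04 beside 0.04 in DKO. The estimate was above 0 for 13 members and below it for 19 in Runx1 KO, above for 12 and below for 20 in Foxl2 KO, and above for 15 and below for 17 in DKO. A call that was missed does not show equal levels, so the 95% intervals give what the arrays could bound. In Runx1 KO the interval lay within a 2-fold change either way for 24 of 32 members, in Foxl2 KO for 25 and in DKO for 30. The standard error of a member's difference was 0.24 in the median, beside 0.20 over all genes.

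**Figure D1:**
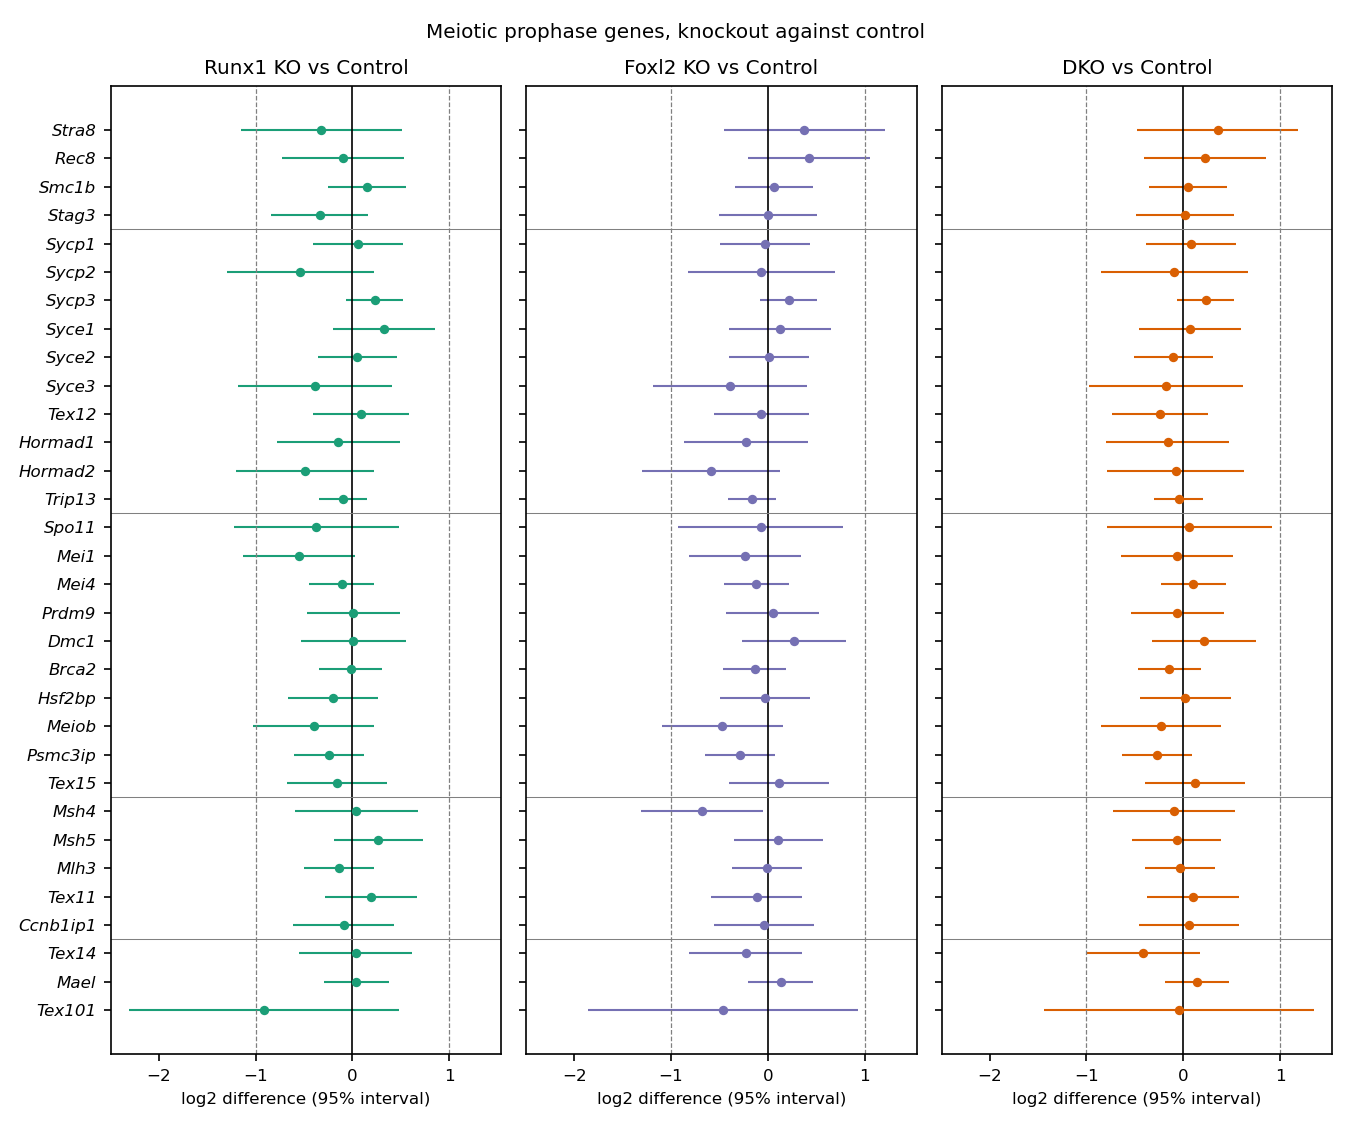
Log2 differences of the 32 measured meiotic prophase genes from control in Runx1 KO, Foxl2 KO and DKO ovaries (4 ovaries per group), in the order of their roles, with horizontal lines between roles. Points are limma estimates on log2(intensity + 16), bars are 95% intervals and dashed lines mark a 2-fold change. The intervals include 0 for 32, 31 and 32 members, the exception being Msh4 in Foxl2 KO, and Tex101 has the widest interval.

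Promoter sequences are shown for the 3 members with the smallest unadjusted p in any comparison (Msh4, Hormad2 and Mei1) and for 3 whose windows held a CACGTG match (Sycp3, Hormad1 and Mael), which were added after their values and matches had been seen. Each is the 250 bases before the annotated start of the gene in RefSeq's annotation of GRCm38.p6, written 5′ to 3′ on the strand of the gene. The Msh4 window is chr3:153904892-153905141 on the minus strand, that of Hormad2 chr11:4441083-4441332 on the minus strand and that of Mei1 chr15:82082226-82082475 on the plus strand. The Sycp3 window is chr10:88459337-88459586 on the plus strand, that of Hormad1 chr3:95559427-95559676 on the plus strand and that of Mael chr1:166238745-166238994 on the minus strand. Capitals mark a match, on either strand, to the E-box core CACGTG, to the E2F-type core TCCCGC, to CNCCTCAG or to TGACGTCA.
Msh4: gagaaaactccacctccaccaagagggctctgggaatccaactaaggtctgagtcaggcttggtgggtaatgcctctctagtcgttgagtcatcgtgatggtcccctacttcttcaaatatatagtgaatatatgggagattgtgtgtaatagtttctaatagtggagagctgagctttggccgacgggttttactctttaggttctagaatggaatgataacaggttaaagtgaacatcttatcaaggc
Hormad2: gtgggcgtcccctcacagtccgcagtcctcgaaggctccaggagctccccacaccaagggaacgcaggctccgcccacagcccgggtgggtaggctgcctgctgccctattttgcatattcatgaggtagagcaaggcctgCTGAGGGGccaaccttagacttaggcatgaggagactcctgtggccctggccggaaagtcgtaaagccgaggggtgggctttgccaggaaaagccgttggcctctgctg
Mei1: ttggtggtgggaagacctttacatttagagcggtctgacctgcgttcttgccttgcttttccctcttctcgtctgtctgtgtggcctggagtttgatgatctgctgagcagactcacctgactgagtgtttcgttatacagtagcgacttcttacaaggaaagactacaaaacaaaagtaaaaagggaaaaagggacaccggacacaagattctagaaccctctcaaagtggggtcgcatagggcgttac
Sycp3: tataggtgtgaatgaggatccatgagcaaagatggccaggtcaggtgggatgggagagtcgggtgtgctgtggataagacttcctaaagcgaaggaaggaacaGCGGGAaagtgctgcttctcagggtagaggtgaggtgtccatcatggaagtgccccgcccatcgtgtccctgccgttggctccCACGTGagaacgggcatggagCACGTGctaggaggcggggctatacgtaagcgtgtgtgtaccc
Hormad1: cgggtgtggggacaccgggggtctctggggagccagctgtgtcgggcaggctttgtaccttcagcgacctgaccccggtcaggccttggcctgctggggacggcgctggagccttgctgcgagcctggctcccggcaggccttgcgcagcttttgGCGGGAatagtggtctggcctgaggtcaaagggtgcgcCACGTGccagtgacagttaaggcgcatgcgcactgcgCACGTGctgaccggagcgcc
Mael: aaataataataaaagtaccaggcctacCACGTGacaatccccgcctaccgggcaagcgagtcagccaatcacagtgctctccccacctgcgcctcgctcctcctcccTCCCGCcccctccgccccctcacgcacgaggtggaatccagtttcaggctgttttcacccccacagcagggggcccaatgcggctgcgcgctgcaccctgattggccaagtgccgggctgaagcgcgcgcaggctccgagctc

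CACGTG is palindromic, and it and TCCCGC are the DNA elements recognised by MGA with MAX and by E2F6 in the Polycomb complex that keeps germline genes silent in somatic cells. CNCCTCAG is the sequence associated with STRA8 binding, and TGACGTCA is the cyclic AMP response element. The RefSeq promoter table held 30 of the 34 members, without Tex15, Tex11, Meiob and Spo11. A gene was counted where the 250-base window of any of its promoters held a match. CACGTG occurred in 7 of 30 members (23.3%), beside 6.86% of the 27025 genes in the table. These members were Hormad1, Mael, Stag3, Syce2, Sycp1, Sycp3 and Tex12. TCCCGC occurred in 17 of 30 (56.7%) beside 18.8%, CNCCTCAG in 4 of 30 (13.3%) beside 7.39%, and TGACGTCA in 1 of 30 (3.33%, Brca2) beside 1.77%. CACGTG and TCCCGC were both present in 1 promoter of 5 of 30 members (16.7%) and of 1.69% of all genes. The Sycp3 and Hormad1 windows above each held CACGTG at 2 positions and TCCCGC at 1, and the Mael window held each once. The Hormad2 window held 1 CNCCTCAG match, and those of Msh4 and Mei1 held none of the 4 sequences. Such matches describe the letters of these windows and are not evidence of binding.

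Among the 4 genes of meiotic entry and cohesion, no knockout group stood apart from control. Stra8, the retinoic acid-induced gene required to enter meiosis, had some of the widest spread within a genotype. Below, values in the ovaries are deposited linear intensities in the order of replicates 1 to 4 of each group. The Stra8 probe set read 81.5, 31.8, 47.2 and 33.6 in the control ovaries, 25.4, 14.6, 47.8 and 58.4 in Runx1 KO, 88.2, 94.0, 33.7 and 56.6 in Foxl2 KO and 48.8, 97.0, 23.8 and 118 in DKO. Readings of 33.7 or less and of 56.6 or more occurred in Runx1 KO and Foxl2 KO alike, and the DKO ovaries spanned the range from 23.8 to 118. The log2 difference of DKO from Runx1 KO was 0.68 (95% interval -0.16 to 1.51, limma adjusted p = 0.668), and that of DKO from control was 0.36 (-0.48 to 1.19).

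Stag3 and Smc1b encode subunits of the meiosis-specific cohesin complex. The Stag3 probe set read 837, 581, 712 and 583 in the control ovaries, 445, 687, 371 and 680.2 in Runx1 KO, 798, 796, 782 and 406 in Foxl2 KO and 573, 735, 725 and 695 in DKO. The Foxl2 KO group held 3 ovaries within 782 to 798 and 1 at 406, while 2 Runx1 KO ovaries lay at 371 and 445. Stag3 differed by -0.34 on the log2 scale in Runx1 KO (-0.84 to 0.17) and by 0.35 between DKO and Runx1 KO (-0.15 to 0.86, limma adjusted p = 0.747). The Smc1b probe set read 4977, 3947, 4061 and 2589 in the control ovaries, 3231, 5142, 4476 and 4201 in Runx1 KO, 4729, 3942, 4088 and 3212 in Foxl2 KO and 3637, 3901, 3973 and 4203 in DKO. The lowest Smc1b value was that of control replicate 4. The Smc1b intervals against control were -0.26 to 0.55 in Runx1 KO, -0.34 to 0.46 in Foxl2 KO and -0.35 to 0.45 in DKO, so each lay inside a 2-fold change. Rec8, the kleisin subunit of the same complex, gave the highest estimate in Foxl2 KO, 0.42 (-0.21 to 1.05, limma adjusted p = 0.676), with 1 low control ovary at 202 beside 497, 563 and 569 in the others. Without that ovary, control replicate 3, the Rec8 estimate was 0.08.

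The 10 synapsis genes had median log2 differences of -0.02 in Runx1 KO, -0.07 in Foxl2 KO and -0.09 in DKO. Sycp3 and Sycp2 build the axial elements of the synaptonemal complex. The Sycp3 probe set read 8571, 7031, 8603 and 6813 in the control ovaries, 7918, 10144, 9333 and 8952 in Runx1 KO, 8644, 8575, 8903 and 9742 in Foxl2 KO and 8877, 10138, 7193 and 10410.3 in DKO. The control ovaries lay between 6813 and 8603 and overlapped each knockout group. Sycp3 had nearly the same estimate in all 3 knockouts, 0.23 in Runx1 KO (-0.06 to 0.53), 0.22 in Foxl2 KO (-0.08 to 0.51) and 0.23 in DKO (-0.06 to 0.53, limma adjusted p = 0.546). These comparisons share the control ovaries, and after quantile normalization the DKO difference was 0.04.

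The Sycp2 probe set read 1625, 1089, 1726 and 1058 in the control ovaries, 451, 1234, 856 and 1489 in Runx1 KO, 1684, 1228, 1890.1 and 681 in Foxl2 KO and 1033, 1134, 1192 and 1770.1 in DKO. The lowest Sycp2 reading, 451, was in Runx1 KO replicate 1, and the next lowest, 681, in Foxl2 KO replicate 4. The difference in Runx1 KO was -0.54 on the log2 scale (-1.30 to 0.22, limma adjusted p = 0.779), and it was -0.20 without Runx1 KO replicate 1. Hormad2 encodes a protein of unsynapsed chromosome axes. The Hormad2 probe set read 122, 124, 55.6 and 45.3 in the control ovaries, 55.6, 58.7, 75.0 and 29.0 in Runx1 KO, 84.2, 47.5, 50.9 and 23.3 in Foxl2 KO and 113, 46.6, 80.04 and 71.9 in DKO. In control, 2 ovaries read 122 and 124 and the others 45.3 and 55.6, and the 12 knockout ovaries read between 23.3 and 113. Hormad2 had log2 differences of -0.49 in Runx1 KO (-1.20 to 0.22), -0.59 in Foxl2 KO (-1.30 to 0.12) and -0.08 in DKO (-0.79 to 0.63). Its interaction estimate was 0.995 (-0.01 to 2.00, limma adjusted p = 0.910), which did not pass the test.

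Syce2 encodes a central element protein of the complex. The Syce2 probe set read 6671, 4243, 5583 and 4200.1 in the control ovaries, 4840.3, 6365, 5837 and 4252 in Runx1 KO, 6651, 4910.5, 4738 and 4418 in Foxl2 KO and 3772, 5646, 4539.6 and 5158 in DKO. All 4 groups covered a similar range, with lowest values of 3772 to 4418, and the Syce2 interval for DKO against control was -0.51 to 0.31. The other synapsis members, namely Sycp1 of the transverse filaments, Syce1, Syce3 and Tex12 of the central element, the axis gene Hormad1 and the ATPase gene Trip13, had estimates of -0.39 (Syce3) to 0.33 (Syce1) in Runx1 KO, -0.39 (Syce3) to 0.13 (Syce1) in Foxl2 KO and -0.24 (Tex12) to 0.08 (Sycp1) in DKO.

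The 10 measured recombination genes had median log2 differences of -0.18 in Runx1 KO, where 8 of 10 estimates were below 0, -0.10 in Foxl2 KO and -0.02 in DKO. Mei1 and Mei4 are needed to form the double-strand breaks made by SPO11. The Mei1 probe set read 236, 195, 281 and 138 in the control ovaries, 88.0, 170.3, 85.5 and 249 in Runx1 KO, 201, 161, 189.9 and 142 in Foxl2 KO and 209, 188, 219 and 172 in DKO. In Runx1 KO, replicates 1 and 3 read 88.0 and 85.5, under every control ovary, while replicate 4 read 249, within the control range. Mei1 had the smallest unadjusted p of any member in Runx1 KO, with a difference of -0.56 (-1.14 to 0.02, limma adjusted p = 0.693). Without Runx1 KO replicate 3 the estimate was -0.36, and without Runx1 KO replicate 1 it was -0.38. It was -0.83 without Runx1 KO replicate 4, the ovary whose Runx1 reading lay just below the control range. The Mei4 probe set read 14.4, 10.2, 7.49 and 13.7 in the control ovaries, 15.0, 5.60, 9.92 and 7.47 in Runx1 KO, 8.24, 12.002, 8.47 and 7.86 in Foxl2 KO and 8.24, 11.3, 12.6 and 23.3 in DKO. All Mei4 values were at most 23.3, and its group means lay under the highest group mean of 3 genes on the Y chromosome, absent from XX ovaries, so that Mei4 was not measured above background. The other 31 members had every group mean above that mark. Genes of spermatids, which an ovary does not hold, give a higher mark, since the highest group mean among 10 of them was 8.51 on the log2(intensity + 16) scale and 2 of the 10 lay at or below the Y-linked mark. In 11 members every group mean was under 8.51. They were Stra8, Hormad2, Spo11, Mei1, Mei4, Prdm9, Dmc1, Meiob, Msh4, Msh5 and Tex101. They thus include Msh4, with the smallest unadjusted p of all members, and Tex101, with the largest difference from control.

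Meiob, Psmc3ip and Tex15 act after the breaks are made, Meiob as a single-strand DNA binding protein and Psmc3ip as a partner of the recombinase DMC1, while Tex15 is required for loading of the recombinases. The Meiob probe set read 169, 96.1, 169.8 and 92.7 in the control ovaries, 65.8, 100.1, 83.9 and 129.6 in Runx1 KO, 67.6, 86.3, 186 and 50.3 in Foxl2 KO and 113, 109.8, 107 and 95.2 in DKO. The 4 DKO ovaries lay within 95.2 to 113, whereas Foxl2 KO ranged from 50.3 to 186. The Foxl2 KO difference of Meiob was -0.47 (-1.09 to 0.15, limma adjusted p = 0.625), and it was -0.25 without Foxl2 KO replicate 4. The Psmc3ip probe set read 2026, 1567, 1626 and 1709 in the control ovaries, 1298, 1648, 1722 and 1228 in Runx1 KO, 1680.3, 1347, 1595 and 1081 in Foxl2 KO and 1116, 1459.8, 1613 and 1567 in DKO. Control values of Psmc3ip started at 1567, and each knockout group reached from below that value to above it. The estimate was -0.24 in Runx1 KO, -0.29 in Foxl2 KO (-0.65 to 0.07, limma adjusted p = 0.586) and -0.27 in DKO, but the gene's second probe set gave 0.10 in Foxl2 KO. The Tex15 probe set read 5540.4, 4069, 4316 and 3109 in the control ovaries, 3079, 4743, 3004 and 4467 in Runx1 KO, 5476, 4888, 5199.6 and 2967 in Foxl2 KO and 3245, 5276, 4386 and 5681 in DKO. Tex15 was at its lowest, 2967 to 3245, in 1 or 2 ovaries of every group, and its interval in DKO against control was -0.39 to 0.64.

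Of the remaining recombination members, Spo11 encodes the protein that makes the breaks. Its differences were -0.37 in Runx1 KO, -0.08 in Foxl2 KO and 0.06 in DKO, with a standard error of 0.40. Prdm9 (the histone methyltransferase that places the breaks), Dmc1, Brca2 and its partner Hsf2bp had estimates of -0.20 (Hsf2bp) to 0.01 (Prdm9 and Dmc1) in Runx1 KO, -0.14 (Brca2) to 0.27 (Dmc1) in Foxl2 KO and -0.15 (Brca2) to 0.21 (Dmc1) in DKO.

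**Figure D2:**
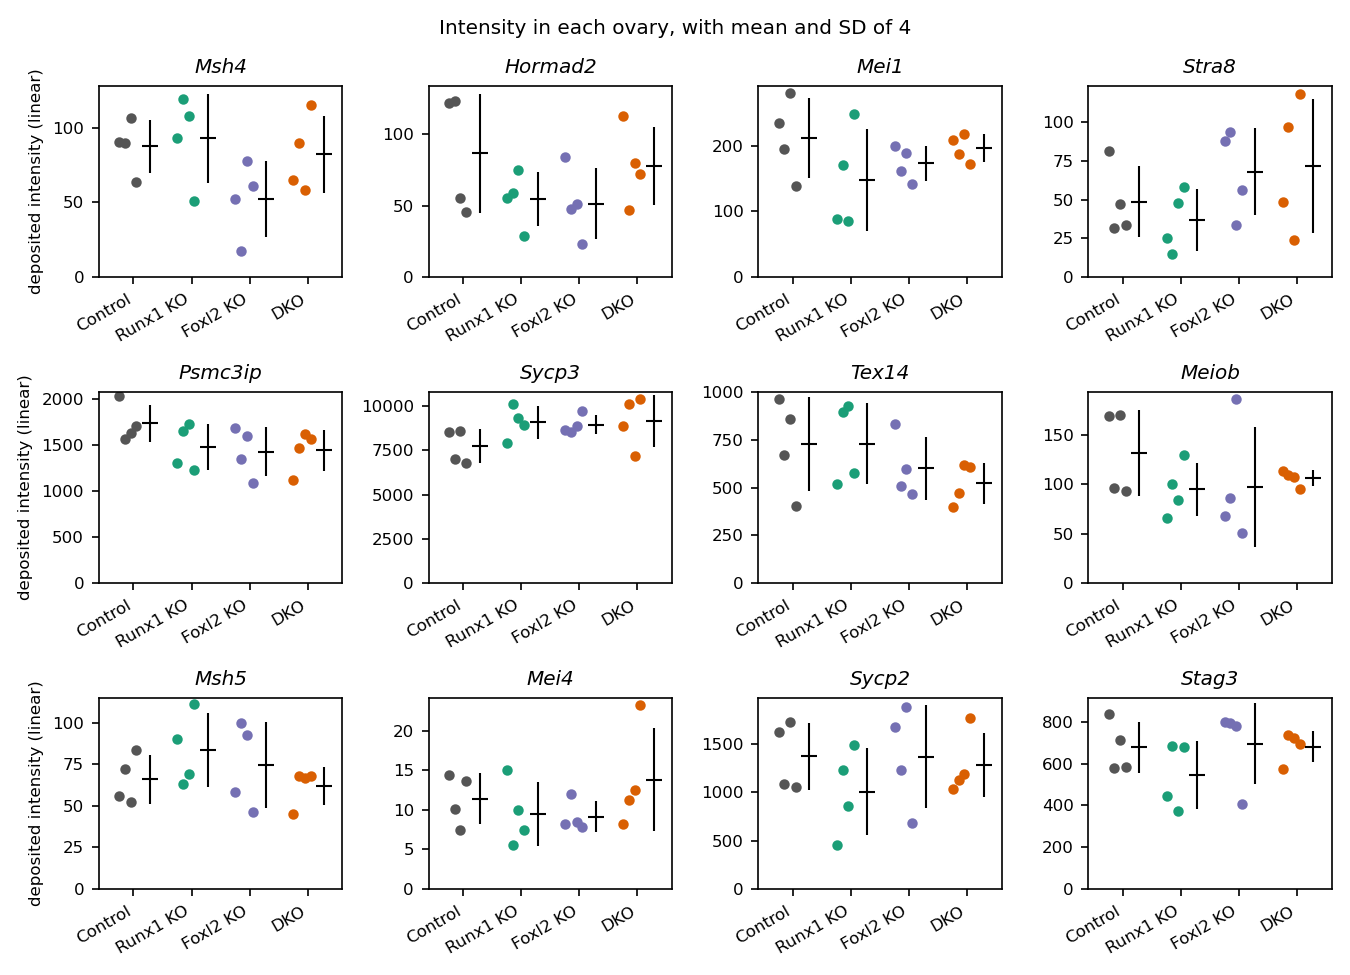
Deposited linear intensity of the 12 members with the smallest unadjusted p in any comparison, 1 point per ovary, with the mean and SD of 4 ovaries to the right of each group. Each panel has its own vertical axis starting at 0. The groups overlap in every panel, and the lowest Msh4 point is 17.5 in a Foxl2 KO ovary.

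Among the 5 measured crossover genes, Msh4 had the smallest unadjusted p of all members. MSH4 and MSH5 form the heterodimer that stabilises recombination intermediates. The Msh4 probe set read 90.04, 89.5, 107 and 63.4 in the control ovaries, 92.8, 119, 108 and 50.9 in Runx1 KO, 52.1, 17.5, 77.6 and 60.6 in Foxl2 KO and 65.1, 89.6, 58.5 and 115 in DKO. The Foxl2 KO values included the lowest of all 16 ovaries, 17.5 in replicate 2, and the other 3, from 52.1 to 77.6, reached into the control range of 63.4 to 107. Msh4 was 0.623 times the control level in Foxl2 KO on the offset scale, a log2 difference of -0.68 (SE 0.30, 95% interval -1.32 to -0.05, limma adjusted p = 0.403). It did not pass the test over all genes, and without Foxl2 KO replicate 2 the estimate was -0.38. In DKO, which also lacks Foxl2, the difference from control was -0.10 (-0.73 to 0.54), and DKO against Foxl2 KO gave 0.59 (-0.04 to 1.22, adjusted p = 0.959 in limma).

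The Msh5 probe set read 56.2, 72.5, 52.2 and 84.0 in the control ovaries, 90.5, 63.1, 69.3 and 112 in Runx1 KO, 58.5, 99.9, 93.0 and 46.5 in Foxl2 KO and 45.1, 68.3, 66.9 and 68.3 in DKO. The difference of this partner gene in Foxl2 KO was 0.11 (-0.35 to 0.57). In DKO, 3 Msh5 values lay within 66.9 to 68.3 and 1 at 45.1, and DKO against Runx1 KO gave -0.34 (-0.80 to 0.12, limma adjusted p = 0.727). Mlh3 encodes an endonuclease subunit that resolves crossovers, and Ccnb1ip1 (HEI10) a regulator of crossover number. The Mlh3 probe set read 1163, 681, 700.3 and 706 in the control ovaries, 601, 838, 715 and 728 in Runx1 KO, 880.4, 822, 838 and 637 in Foxl2 KO and 771, 725, 839 and 757 in DKO. Apart from 1163 in control replicate 1, the Mlh3 values of all ovaries lay between 601 and 880. The Ccnb1ip1 probe set read 579.8, 514, 867 and 495 in the control ovaries, 376, 663, 557 and 709 in Runx1 KO, 487, 577, 832 and 485 in Foxl2 KO and 551, 488, 653 and 855 in DKO. Ccnb1ip1 thus spanned 495 to 867 in control and similar ranges in Foxl2 KO (485 to 832) and DKO (488 to 855), with the single lowest value, 376, in Runx1 KO replicate 1. The Mlh3 interval in DKO against control was -0.40 to 0.33 and that of Ccnb1ip1 was -0.46 to 0.57. The X-linked crossover gene Tex11 had estimates of 0.19, -0.12 and 0.10 in Runx1 KO, Foxl2 KO and DKO.

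Tex14, Mael and Tex101 are germ cell genes with roles beside recombination. Tex14 is needed for the intercellular bridges that join germ cells. The Tex14 probe set read 967, 671, 862 and 405 in the control ovaries, 519, 897, 929.9 and 575 in Runx1 KO, 834, 507, 598 and 467 in Foxl2 KO and 397, 469.8, 617 and 609.9 in DKO. Its DKO ovaries read 397 to 617, from just below the control range of 405 to 967 to its lower part. The Tex14 difference was -0.41 in DKO against control (-0.997 to 0.17, limma adjusted p = 0.596) and -0.45 against Runx1 KO (-1.03 to 0.14). The Mael probe set read 5908, 5006, 5633 and 4051 in the control ovaries, 3949.5, 6214, 5424 and 5677 in Runx1 KO, 6484, 5379.9, 5591 and 5003 in Foxl2 KO and 5791, 5747, 5058 and 5968 in DKO. Mael, a gene of the piRNA pathway, stayed between 3950 and 6484 in all ovaries, with a DKO interval of -0.19 to 0.48. Tex101, a germ cell surface protein gene, gave the largest difference from control of any member, -0.92 in Runx1 KO, with an interval of -2.31 to 0.48 that covered both directions. The Tex101 probe set read 328, 258, 247 and 185 in the control ovaries, 103, 159.5, 40.5 and 317 in Runx1 KO, 328, 349, 327 and 16.3 in Foxl2 KO and 302, 279, 230.0 and 176 in DKO. The very low values, 16.3 in Foxl2 KO replicate 4 and 40.5 in Runx1 KO replicate 3, had no counterpart in control or DKO. Without Runx1 KO replicate 3 the Tex101 difference in Runx1 KO was -0.48. In Foxl2 KO it was -0.46, and without replicate 4 it turned to 0.40.

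The members varied from ovary to ovary within each genotype. The SD of a member within genotypes was 0.36 log2 in the median, beside 0.29 over all genes. In Foxl2 KO, replicate 4 had the lowest value of its group for 26 of 32 members (81.3%), beside 26.7% of all genes. In control, replicate 4 was lowest for 23 of 32 (71.9%), beside 36.2% of all genes. Control replicate 1 was highest for 18 of 32, for which no share over all genes was taken. The median log2 deviation from the group mean was 0.34 for the members in control replicate 1, beside 0.005 over all genes. It was -0.35 beside -0.07 in control replicate 4 and -0.30 beside -0.001 in Foxl2 KO replicate 4. Compared with the mean of the other 3 Foxl2 KO ovaries, replicate 4 was lower for 29 of 32 members, by more than 1 on the log2 scale for 5, which were Tex101 (-3.44), Spo11 (-1.62), Syce3 (-1.23), Sycp2 (-1.19) and Hormad1 (-1.13). Sycp3 and Rec8 were higher there than in the others, by 0.16 and 0.10, and Msh4 by 0.36.

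**Figure D3:**
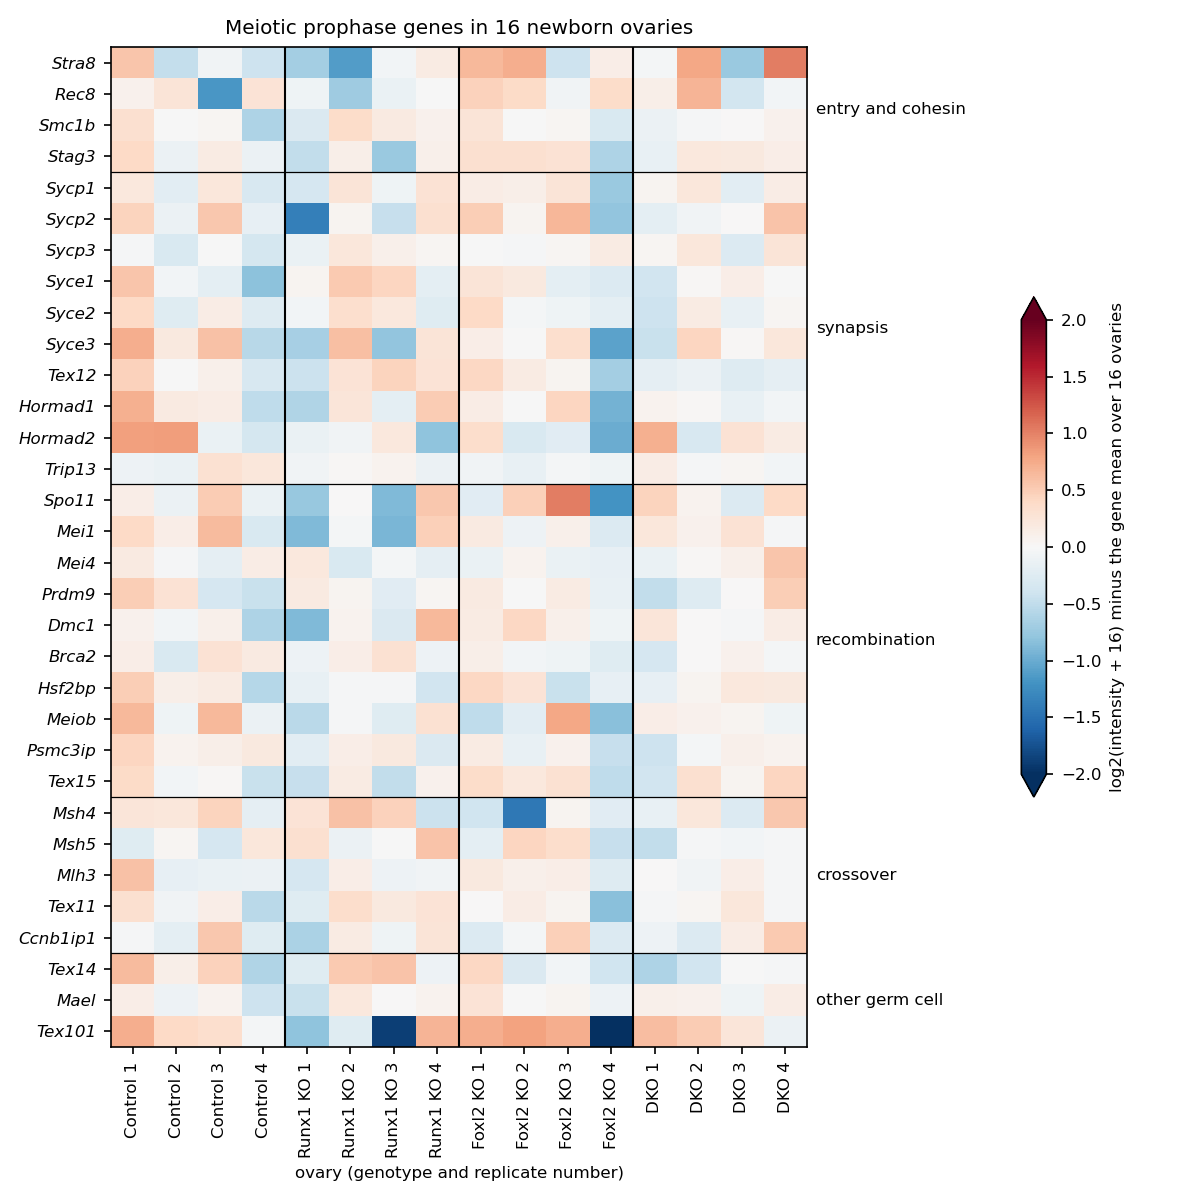
Deviation of each member from its own mean over 16 ovaries, on the log2(intensity + 16) scale, with ovaries in columns by genotype and members in rows by role. Red is above and blue below the mean, and the scale ends at 2 in either direction, which Tex101 exceeds in Foxl2 KO replicate 4. Columns such as Control 4, Runx1 KO 1 and Foxl2 KO 4 are blue across most rows, while no genotype is of one colour.

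Most members varied together across ovaries of the same genotype. After the group means were removed, the median correlation between pairs of members was 0.35 over 496 pairs and 16 ovaries, and 389 pairs were positive. Such covariation was not particular to the members. The same median was 0.58 among 9 germ cell genes, 0.48 among 17 oocyte genes, 0.48 among 10 endothelial genes and 0.44 among 10 stromal genes. It was 0.25 among 10 macrophage genes and 0.12 among 12 Sertoli cell genes. Among 21 other meiotic genes it was 0.04, with 113 of 210 pairs positive. The correlation of a member with the mean of the others was highest for Hormad1 (r = 0.93), Sycp1 (0.92), Tex15 (0.92), Tex11 (0.90) and Syce3 (0.89), was over 0.5 for 21 of 32 members, and was lowest for Rec8 and Trip13 (both -0.27). All points share the same 16 arrays and their scaling, so these are descriptions of the ovaries. The 7 members whose windows held CACGTG had a median correlation with the other members of 0.85, from 0.35 (Sycp3) to 0.93 (Hormad1). The 21 measured members with a window and no match had a median of 0.54 (-0.27 to 0.89). These included Syce3 at 0.89, and genes of low level such as Mei4 (-0.07) and Msh4 (0.01). The part of level in these medians was not tested.

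The mean deviation of the 32 members, taken per ovary as a score, ranged from -0.26 to 0.35 in control, -0.34 to 0.10 in Runx1 KO, -0.48 to 0.17 in Foxl2 KO and -0.07 to 0.17 in DKO. Within genotypes it went with the score of 9 other germ cell genes such as Ddx4 and Dazl (r = 0.82 over 16 ovaries) and with that of 21 other meiotic genes (r = 0.88). With the oocyte growth and folliculogenesis genes, such as Figla, Nobox and Zp3, the correlation was -0.18 over 17 genes, and with macrophage genes it was -0.70. In Foxl2 KO replicate 4 the germ cell score was -0.19, the lowest of its group, while the oocyte score was 0.82, the highest of its group. In control replicate 4 the germ cell score was -0.40 and the oocyte score -0.72, both the lowest of the group, and the erythroid score was 3.18 beside at most 0.16 in any other ovary. With the germ cell score as a covariate, 0 of 32 members were called in each of the 6 comparisons. The part of the oocyte, macrophage and erythroid scores in the meiotic results was not tested. Without both ovaries, 0 of 32 members were called in each of the 6 comparisons.

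**Figure D4:**
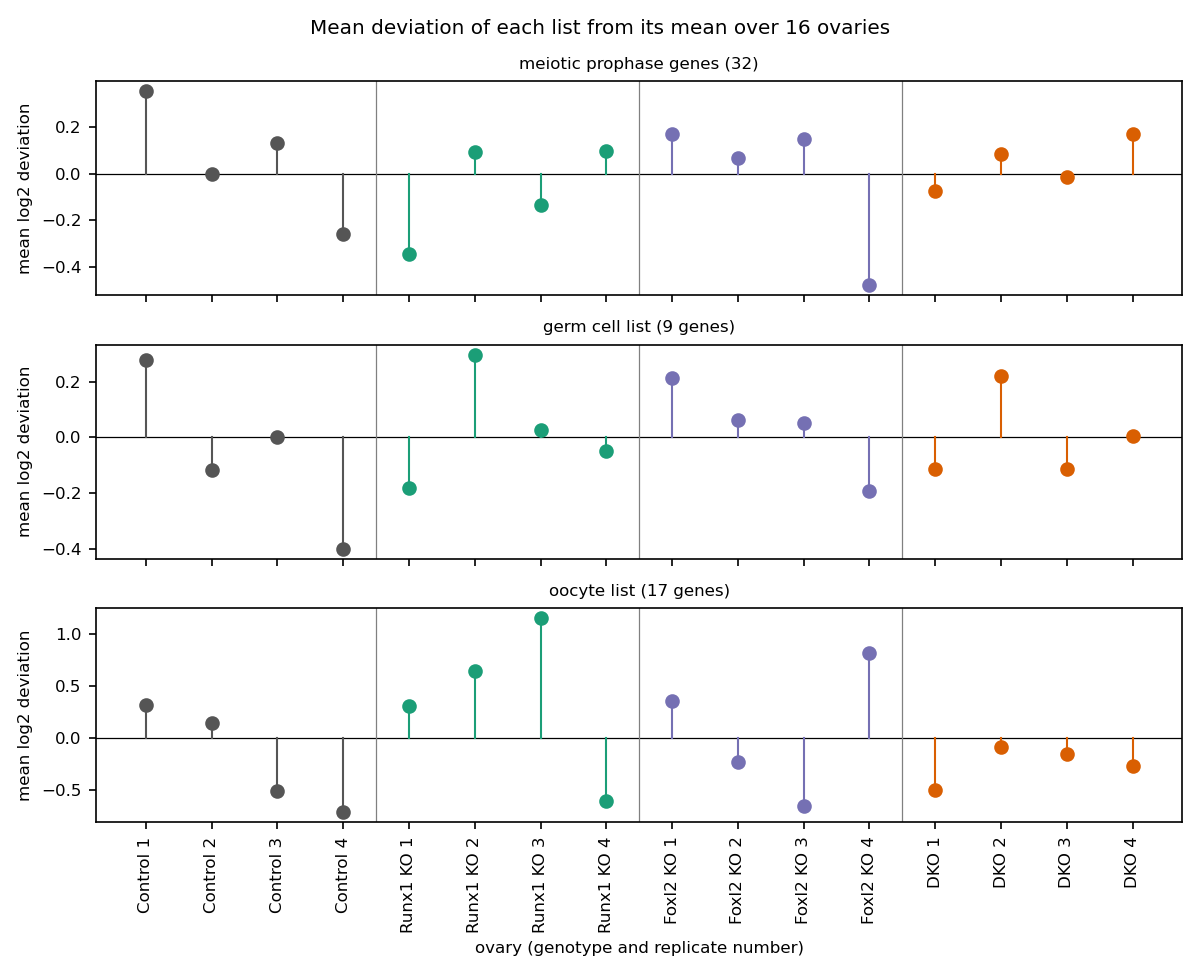
Mean log2 deviation of 3 gene lists in each ovary from the mean over 16 ovaries, for the 32 meiotic prophase genes, 9 germ cell genes and 17 oocyte genes. Colours give the genotype. The meiotic and germ cell scores are both low in Control 4, Runx1 KO 1 and Foxl2 KO 4, while the oocyte score is high in Foxl2 KO 4.

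A further list of 35 meiotic genes, of which 21 were measured, gave 0 calls in limma in any of the 6 comparisons. At an unadjusted limma p under 0.05 it held 1 gene of 21 in Runx1 KO (7.34% of all genes) and 2 in Foxl2 KO (11%). It held 1 in DKO (12.4%), 1 in DKO against Foxl2 KO (5.38%) and 0 in the other comparisons. Among its smallest unadjusted p were those of Majin, which tethers telomeres to the nuclear envelope, with a difference of 0.61 in DKO against Foxl2 KO (limma adjusted p = 0.746), and of Meioc, which stabilises the meiotic programme, with -1.15 in Runx1 KO (limma adjusted p = 0.616). The 9 germ cell and 17 oocyte genes also gave 0 calls in any comparison. Lists of somatic supporting cell genes did hold calls. Of 11 pre-granulosa genes, which include Foxl2 and Runx1 themselves, 0 were called lower in Runx1 KO, 4 in Foxl2 KO and 6 in DKO. The estimate was above 0 for 5 of the 11 in Foxl2 KO and for 4 in DKO, none of them called. Of 12 Sertoli cell genes, 1 was called higher in Runx1 KO, 5 in Foxl2 KO (with 1 lower) and 5 in DKO. Their estimates were below 0 for 1, 3 and 4 of the 12. Over all genes 0.121%, 1.52% and 2.13% were called. These lists are no independent comparison, since they hold the deleted genes and Fst, Dmrt1, Dhh and Fgf9, which the study itself reported as changed.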

How the data were processed

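Newborn XX ovaries were profiled on Affymetrix mouse genome arrays, from RNA amplified before labelling. The deposited values are linear intensities per probe set, made by the authors with Affymetrix Expression Console version 1.2. How the deposited intensities were summarised and scaled is not given in the sources used here, and the study's tests used RMA values that were not analysed here. No column was left without a sample.

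Probe sets were named through the platform annotation, with symbols updated by gene identifier. Of 45101 probe sets, 34945 had 1 gene, 932 several and 9160 none, and 64 were controls. The probe set with the highest mean stood for a gene, which left 18193 genes. Intensities were turned into log2(intensity + 16), and a model of 4 group means over 16 arrays was fitted with limma version 3.58.1 in R version 4.3.3 (lmFit and eBayes, two-sided, Benjamini-Hochberg over all genes within a comparison). The comparisons were each knockout with control, DKO with each single knockout, and the interaction. The script was tested on simulated data. Replicates correlated at 0.957 to 0.981. The p-values set a difference between group means against the spread between single ovaries, and the number of arrays limits their precision.

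The members, the comparison lists and the motifs were chosen with earlier results of these data known. Values in every ovary are given for the 12 members with the smallest unadjusted p in any comparison, since none was called, and for at least the 2 highest of each role, and the other members named beside them were chosen after their values were seen. Of the further meiotic genes, the 3 with the smallest unadjusted p were to be named, and 1 of them is not reported here. The study names its controls as littermates, but no label gives the litter of an ovary, so replicate numbers were not used as pairs. Of 24 pairs of arrays with the same number, 1 correlated above 0.1 after group means were removed. That cannot exclude shared litters. Alternatives were the offset, the scaling, the choice of probe sets, a filter on low levels, the variance prior, array weights, the replicate block, the samples fitted, a germ cell covariate, the study's analysis of variance, and leaving out each ovary. Promoters came from RefSeq's table for GRCm38.p6.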

Additional observations from a re-analysis of the deposited data

Results flagged for a closer look

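In 8 member genes and in the mean of all members, 1 ovary lay far from the other 3 of its group, judged by the gap to its nearest neighbour as a share of the group's range. In 5 of the 9 cases the ovary was Foxl2 KO replicate 4, which was the lowest of its group. The share was 0.975 there for Tex101, 0.970 for Stag3, 0.865 for Sycp1, 0.856 for Tex11 and 0.840 for the mean of the 32 members. It was 0.948 for Msh5, lowest in DKO replicate 1, 0.931 for Mlh3, highest in control replicate 1, and 0.866 for Rec8, lowest in control replicate 3. For Mei4, highest in Foxl2 KO replicate 2 and below background there, it was 0.843. These are 9 of 140 groups examined (the 32 members and 3 list scores in 4 groups each), and chance gives about 1 in 20.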

How the results depend on the processing

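In 28 further limma fits 0 members were called in any comparison, and the lowest adjusted p of a member was 0.178. The fit filtered on low levels and the fit without probe sets shared between transcripts held fewer than the 32 members. The study's analysis of variance also called 0. The replicate block gave 0 calls. It could not change the medians, such as -0.10 in Runx1 KO, because every group held all the replicate numbers. Over the alternatives the median of the members ranged from -0.17 to -0.01 in Runx1 KO, -0.14 to 0.11 in Foxl2 KO, -0.12 to 0.09 in DKO, -0.12 to 0.10 in DKO against Foxl2 KO, -0.03 to 0.16 in DKO against Runx1 KO and -0.01 to 0.24 in the interaction. Of the 18 members chosen by the rule, 14 kept the sign of their leading difference in every alternative. Psmc3ip in Foxl2 KO became 0.10 when probe sets shared between transcripts were left out. Leaving out 1 ovary at a time, Smc1b in Runx1 KO ranged from -0.034 (without control replicate 4) to 0.279, Mlh3 in Runx1 KO from -0.217 to 0.0399 (without control replicate 1), and Ccnb1ip1 in DKO against Runx1 KO from -0.0385 (without Runx1 KO replicate 1) to 0.261, with -0.0017 without DKO replicate 4. Without control replicate 4 and Foxl2 KO replicate 4 together, an alternative chosen after seeing the data, Smc1b in Runx1 KO was -0.034. Of 2 members named after their values were seen, Rec8 in Foxl2 KO ranged from 0.082 (without control replicate 3) to 0.558, Tex101 in Runx1 KO from -1.33 to -0.478 (without Runx1 KO replicate 3) and Tex101 in Foxl2 KO from -0.766 to 0.40 (without Foxl2 KO replicate 4), with 0.27 without control replicate 4 and Foxl2 KO replicate 4 together. The cause was not tested beyond the change of samples or probe sets itself.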
